A study of Mus musculus with 9 samples.

Results

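SMAD proteins and the proteins that restrain them were examined as a set of 10 genes chosen by name: Smad1, Smad2, Smad3, Smad4, Smad5, Smad7, Smurf1, Smurf2, Ski and Skil. They are 10 of the 25759 gene rows in a table of RNA sequencing values from mouse CD4+ T cells. All 10 were found, and all 10 passed the filter that left 15126 genes for testing, namely an average FPKM of 0.5 or more across the 9 libraries. FPKM is the number of fragments per kilobase of transcript scaled to library depth, so levels can be set side by side between genes.

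The study compared T cells that lack the BMP receptor BMPR1a with wild-type (WT) cells after activation, and WT cells before and after activation. The 3 activated knockout libraries carry the genotype BMPR1a/CD4cre, in which a Cre driven by Cd4 sequences acts from T cell development in the thymus onward, in CD4 and CD8 lineages alike. The 3 activated WT libraries were treated in the same way: whole suspensions of lymph node and spleen cells were stimulated for 3 days with 2 ug/ml ConA, a lectin that activates T cells, with 10 ng/ml LPS present. CD4+ cells positive for CD44, negative for CD62L and negative for a Foxp3-GFP reporter were then sorted from these cultures. The 3 naive WT libraries came from uncultured lymph node and spleen cells sorted as CD4+, CD44-negative, positive for the marker the labels write as CD62, and reporter-negative. All mice were C57BL/6, were 8 to 12 weeks old and carried the Foxp3-GFP reporter. Naive knockout cells were not analysed here, so the genotypes are compared after activation, and activation, culture and the change of sort gate cannot be told apart. Whether replicates are different mice or cultures is not stated in the labels, so the p-values reflect only the scatter among these libraries, which may be partly technical.

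Ligands of the TGF-β family bind pairs of receptor kinases that phosphorylate receptor-regulated SMADs. Smad1 and Smad5 are the usual substrates of BMP receptors, Smad2 and Smad3 those of TGF-β and activin receptors, and both kinds enter the nucleus bound to the shared partner Smad4. Smad7, itself a target gene of the pathway, blocks the receptors and brings in the ubiquitin ligases Smurf1 and Smurf2, while Ski and Skil (also called SnoN) bind SMADs on DNA and repress transcription. In CD4+ T cells TGF-β signalling restrains activation and takes part in the choice between regulatory and effector fates.

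The libraries had between 12922 and 13395 genes at or above 1 FPKM. The values are fractional estimates without counts, so depth is unknown and no counting interval is given. The summed FPKM of 8 CD4 T cell markers was similar, at 3198 to 3632 in activated knockout, 3268 to 3666 in activated WT and 3173 to 3353 in naive WT libraries. Markers of other cells differed with activation: the sum of 2 CD8 markers was 220 to 279 FPKM in knockout and 147 to 230 FPKM in activated WT, against 9.48 to 41.4 FPKM in naive WT libraries. The sum of 7 NK cell markers was 167 to 219 FPKM in knockout and 167 to 196 FPKM in activated WT, against 31.6 to 68.4 FPKM in naive WT libraries, but its members went both ways. Of the 6 tested, 3 were higher and 3 lower in activated WT than in naive WT cells (limma), with Klrd1 at 146 and 21.8 FPKM and Tyrobp at 1.60 and 22.5 FPKM. The sum of 6 B cell markers was 614 to 1056 FPKM in knockout, 666 to 1167 FPKM in activated WT and 276 to 584 FPKM in naive WT libraries, and 1 of the 6 was called on activation, as higher (limma). Naive libraries held more granulocyte and macrophage transcripts, with 9 markers summing to 3.97 to 6.84 FPKM in knockout, 4.57 to 6.40 FPKM in activated WT and 71.2 to 813 FPKM in naive WT, where library 2 stood apart at 813 FPKM. They also held more erythroid transcripts, with 6 markers summing to 0.981 to 1.72, 0.816 to 1.02 and 63.6 to 84.2 FPKM in the same order of groups. No marker on any of these lists was at 0 in every library of a group. The NK marker Ncr1 stayed under 0.06 FPKM in all 6 activated libraries. The part of these cells in the results on activation was not tested. In bulk samples, fewer cells of a type and less RNA per cell cannot be told apart.

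Bmpr1a, the targeted gene (14:34410734-34503341, minus strand, GRCm38), had 0.957, 1.93 and 1.199 FPKM in the activated knockout, 2.16, 2.92 and 1.40 FPKM in activated WT and 0.460, 0.311 and 0.336 FPKM in naive WT libraries. The knockout and activated WT libraries overlapped, and the difference of -0.41 on the log2(FPKM + 1) scale missed the threshold (limma adjusted p = 0.261). A gene-level value can include reads from exons outside the deleted part, so it cannot check the label of the knockout libraries.

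Activation was accompanied by lower FPKM of nearly the whole set. FPKM is relative to all RNA sequenced in a library, so amounts per cell were not measured. Of the 10 genes, 9 fell in activated WT relative to naive WT cells and 0 rose, at a Benjamini-Hochberg adjusted p under 0.05 in limma. Among all tested genes 52.0% were called in this comparison and 25.8% were called lower and 26.2% higher, and the median log2 change was -0.76 over the 10 genes and -0.0091 over all genes tested. The deepest falls were those of the negative regulators Smurf2, Ski, Smad7 and Skil, whereas the TGF-β mediators Smad2 and Smad3 were nearest to no change. Without naive WT library 2, which had the most granulocyte and macrophage transcripts, 8 of the 10 genes were called, all lower, and Smad2 was not (limma adjusted p = 0.0873). Together the 10 genes summed to 145 ± 11.0 FPKM in activated WT and 275 ± 15.6 FPKM in naive WT libraries (SD, n = 3 each).

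The promoters of Smurf2, Ski and Smad3 are shown because the first 2 belong to the genes with the largest falls and Smad3 is the gene that did not pass the test. They run from 250 bases before to 50 bases after the annotated start, 5′ to 3′ on the strand of the gene, from RefSeq on GRCm38.p6. Capitals mark matches on either strand to the SMAD-binding motif CAGAC, which reads GTCTG on the reverse strand, and to the GC-rich motif GGCGCC.
Smurf2, chr11:106920666-106920965, minus strand: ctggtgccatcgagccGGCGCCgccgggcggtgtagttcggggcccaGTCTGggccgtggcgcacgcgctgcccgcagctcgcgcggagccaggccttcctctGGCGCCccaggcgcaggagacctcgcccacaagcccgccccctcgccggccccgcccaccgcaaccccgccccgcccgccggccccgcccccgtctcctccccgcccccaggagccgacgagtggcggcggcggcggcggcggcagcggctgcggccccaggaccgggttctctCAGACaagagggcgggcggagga
Ski, chr4:155222486-155222785, minus strand: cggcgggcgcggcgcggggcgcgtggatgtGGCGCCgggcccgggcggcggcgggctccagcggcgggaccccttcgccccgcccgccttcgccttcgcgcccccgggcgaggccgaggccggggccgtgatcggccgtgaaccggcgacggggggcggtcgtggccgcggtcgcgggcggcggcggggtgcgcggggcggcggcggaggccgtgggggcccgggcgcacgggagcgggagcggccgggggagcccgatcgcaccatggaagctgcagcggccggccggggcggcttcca
Smad3, chr9:63757945-63758244, minus strand: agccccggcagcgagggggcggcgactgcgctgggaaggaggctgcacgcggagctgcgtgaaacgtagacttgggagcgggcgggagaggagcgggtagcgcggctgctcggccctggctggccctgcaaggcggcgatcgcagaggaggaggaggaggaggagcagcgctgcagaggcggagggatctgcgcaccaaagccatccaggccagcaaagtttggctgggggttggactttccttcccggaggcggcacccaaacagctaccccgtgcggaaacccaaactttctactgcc
The Smurf2 promoter held 2 matches to CAGAC and 2 to GGCGCC, and that of Ski held 1 match to GGCGCC. The Smad3 promoter held no match to these letters, and nor did that of Smad1, a gene that fell. That of Smurf1 held 2 matches to CAGAC and none to GGCGCC. Of the 3 promoters of Smad5, 2 held 1 match to GGCGCC and 1 held 1 match to CAGAC. The 2 with GGCGCC overlap on the genome, and their match is the same site. The palindrome GTCTAGAC was searched too and was found in none of the 8 promoters searched. These belong to 6 genes, namely Ski, Smad1, Smad3, Smad5, Smurf1 and Smurf2. Promoters of Smad2, Smad4, Smad7 and Skil were not searched, so nothing is said about motifs in them. Within a promoter no match overlapped another. Of all 32851 mouse promoters of this length, 49.6% held CAGAC, 11.9% held GGCGCC and 0.213% held GTCTAGAC. The GC content was 80.3% for Smurf2, 85.3% for Ski and 67.7% for Smad3, against a median of 52.7% over all promoters.

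Among the SMADs of the BMP branch, Smad1 (8:79338395-79399518, minus strand) had 3.84, 4.52 and 4.90 FPKM in activated WT and 7.03, 6.95 and 6.36 FPKM in naive WT libraries. It was the least abundant of the 10 genes in every group, and every activated library lay below every naive one. Smad1 fell by 0.53 on the log2 scale (SE 0.0940, limma adjusted p = 0.00231).

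Smad5 (13:56703010-56742377, plus strand), the other SMAD of the BMP branch, had 5.52, 7.40 and 8.19 FPKM in activated WT and 13.4, 14.1 and 12.4 FPKM in naive WT libraries. The groups did not overlap, and the activated libraries were the more scattered. The ratio of the group means was 0.530, and Smad5 fell by 0.84 on the log2 scale (SE 0.142, limma adjusted p = 0.00177).

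Smad2 (18:76241580-76310963, plus strand), a mediator of TGF-β and activin signals, had 19.5, 19.8 and 21.3 FPKM in activated WT and 23.9, 23.2 and 22.05 FPKM in naive WT libraries. The groups did not overlap but lay close together. Smad2 fell by 0.18 on the log2 scale (SE 0.0650, limma adjusted p = 0.0445), a call that 9 of 18 alternative settings did not make.

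Smad3 (9:63646767-63757994, minus strand), the other mediator of that branch, had 15.99, 16.7 and 18.8 FPKM in activated WT and 17.8, 18.1 and 13.3 FPKM in naive WT libraries. The groups overlapped throughout, with the lowest value in a naive library. The log2 difference was 0.073 with a 95% interval from -0.27 to 0.42 (limma adjusted p = 0.706). Without naive WT library 3 the difference was -0.062.

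Smad4 (18:73639009-73703780, minus strand), the partner shared by both branches, had 26.2, 27.7 and 28.1 FPKM in activated WT and 45.5, 41.1 and 41.3 FPKM in naive WT libraries. The values within each group were close and the groups stood far apart. Smad4 fell by 0.62 on the log2 scale (SE 0.0784, limma adjusted p = 0.000428).

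Smad7 (18:75367529-75395935, plus strand), the inhibitory SMAD, had 16.4, 18.2 and 20.9 FPKM in activated WT and 51.5, 43.8 and 46.5 FPKM in naive WT libraries. Its highest activated value was under its lowest naive value by a wide margin. The ratio of means was 0.391 and the log2 fall was 1.31 (coefficient -1.31, SE 0.102, limma adjusted p = 4.4e-05). In 3.30% of the tested genes the log2 change was lower than that of Smad7. The other inhibitory SMAD, Smad6, and the further BMP-type SMAD, Smad9, were listed under 0.03 FPKM in all 9 libraries and were not tested.

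Smurf1 (5:144876495-144965847, minus strand), a ligase first known for marking BMP-branch SMADs for degradation, had 7.95, 11.9 and 11.2 FPKM in activated WT and 17.96, 18.02 and 14.8 FPKM in naive WT libraries. The groups did not overlap. Smurf1 fell by 0.67 on the log2 scale (SE 0.143, limma adjusted p = 0.00525).

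Smurf2 (11:106820066-106920715, minus strand), its paralog, had 9.11, 9.37 and 8.55 FPKM in activated WT and 28.7, 35.7 and 23.8 FPKM in naive WT libraries. The activated values were tightly grouped, and the naive values were scattered but all higher. The ratio of means was 0.307 and the log2 change was -1.58 (SE 0.128, limma adjusted p = 5.3e-05). It had the most negative log2 change of the 10 genes, with 2.24% of the tested genes below it.

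Ski (4:155154075-155222592, minus strand), a corepressor that disrupts SMAD complexes, had 17.6, 21.03 and 19.9 FPKM in activated WT and 56.5, 53.3 and 55.3 FPKM in naive WT libraries. It was the most abundant of the 10 genes in naive cells, and no value came near those of the other group. The ratio of means was 0.355 and the log2 change was -1.45 (SE 0.0727, limma adjusted p = 7.8e-06).

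Skil (3:31095058-31122577, plus strand), the second corepressor and, like Smad7, a target gene of the pathway, had 11.0, 12.5 and 12.2 FPKM in activated WT and 25.3, 25.3 and 21.5 FPKM in naive WT libraries. The groups did not overlap. Skil fell by 0.95 on the log2 scale (SE 0.105, limma adjusted p = 0.000218).

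**Figure D1:**
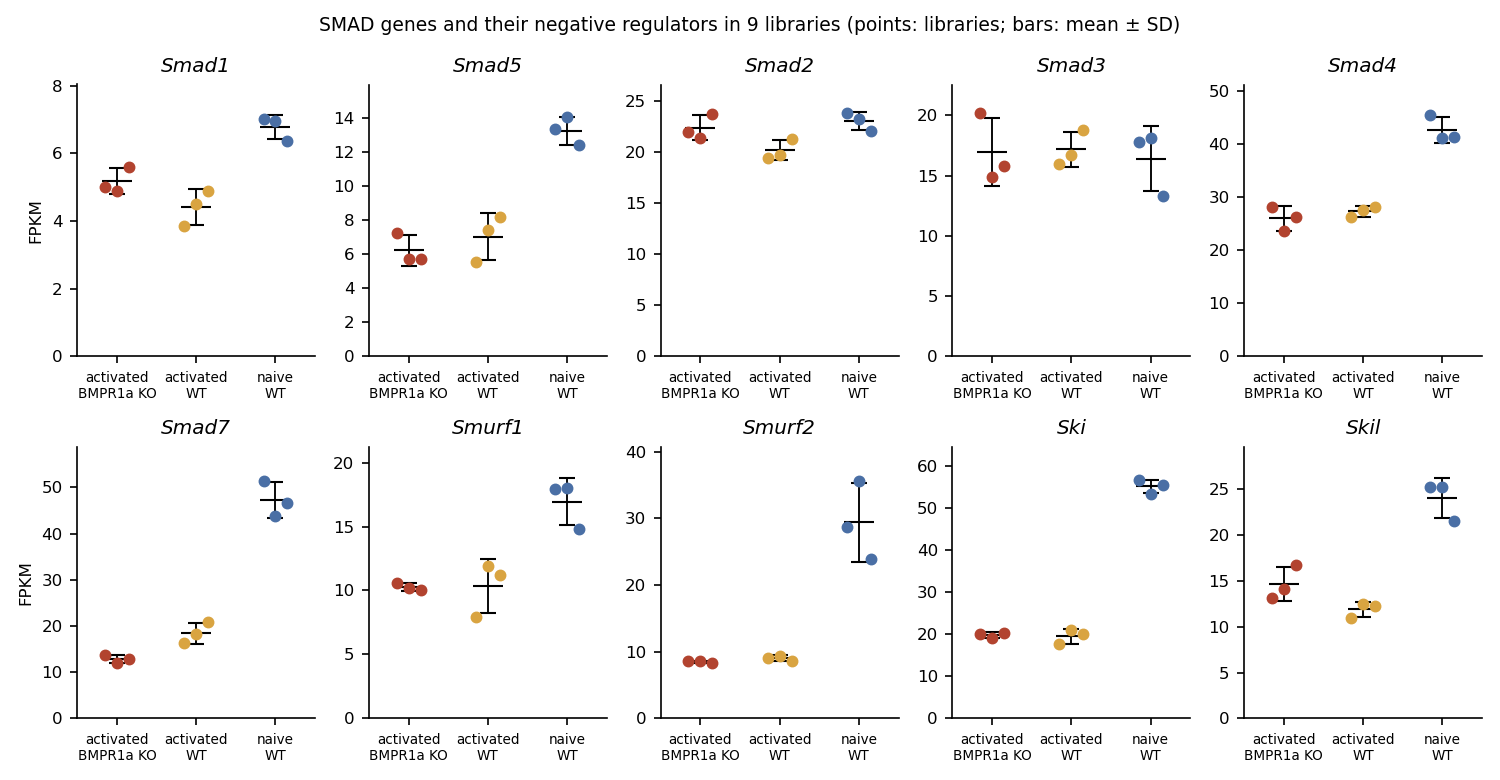
FPKM of each of the 10 genes in activated BMPR1a knockout, activated WT and naive WT libraries, with points for libraries and bars for the mean and SD of 3 libraries. Ski, Smad7 and Smurf2 averaged 55.1, 47.3 and 29.4 FPKM in naive WT cells and lay under 21.1 FPKM in all 6 activated libraries, while Smad3 overlapped between all groups.

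In 9 of the 10 genes the activated WT libraries did not overlap the naive ones, all 9 being lower, against 59.4% of tested genes without overlap, 29.8% lower and 29.6% higher. With 3 libraries against 3, the exact two-sided permutation test can give no p under 0.1, and it gave 0.1 for each of these 9 genes.

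The order of levels changed with activation. In activated WT cells Smad4 came first at 27.3 ± 0.999 FPKM, ahead of Smad2 at 20.2 ± 0.975, Ski at 19.5 ± 1.76, Smad7 at 18.5 ± 2.27 and Smad3 at 17.2 ± 1.46 FPKM (SD, n = 3 each). Neighbours among these last 4 overlapped and could not be ranked. Skil, Smurf1 and Smurf2 followed, also with overlap between neighbours, and then Smad5 and Smad1. In naive WT cells Ski came first at 55.1 ± 1.61 FPKM, ahead of Smad7 at 47.3 ± 3.89 and Smad4 at 42.6 ± 2.49 FPKM (SD, n = 3 each), of which the last 2 overlapped. Smurf2, Skil and Smad2 came next, each overlapping its neighbour, then Smurf1, Smad3 and Smad5 in the same way, and Smad1 was last.

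Proportions formed within each library show how unevenly the genes moved. They are descriptions of the same values and carry no test. Smad1 and Smad5 together made up 23.4 ± 2.15% of the receptor-regulated SMAD FPKM in activated WT and 33.7 ± 0.908% in naive WT libraries (SD, n = 3 each). The sum of Smad1 and Smad5 was 11.5 ± 1.91 FPKM in activated WT and 20.0 ± 1.16 FPKM in naive WT, without overlap, whereas the sum of Smad2 and Smad3 was 37.3 ± 2.43 and 39.4 ± 3.54 FPKM, with overlap. The ratio of Smad7 to the sum of Smad2 and Smad3 was 0.462, 0.497 and 0.521 in activated WT and 1.24, 1.06 and 1.32 in naive WT libraries. Every naive library thus held more Smad7 than Smad2 and Smad3 combined, and every activated one held less. The ratio of Smurf2 to Smurf1 was 0.899 ± 0.216 in activated WT and 1.73 ± 0.216 in naive WT, and that of Ski to Skil was 1.64 ± 0.0420 and 2.31 ± 0.237, both without overlap (SD, n = 3 each).

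**Figure D2:**
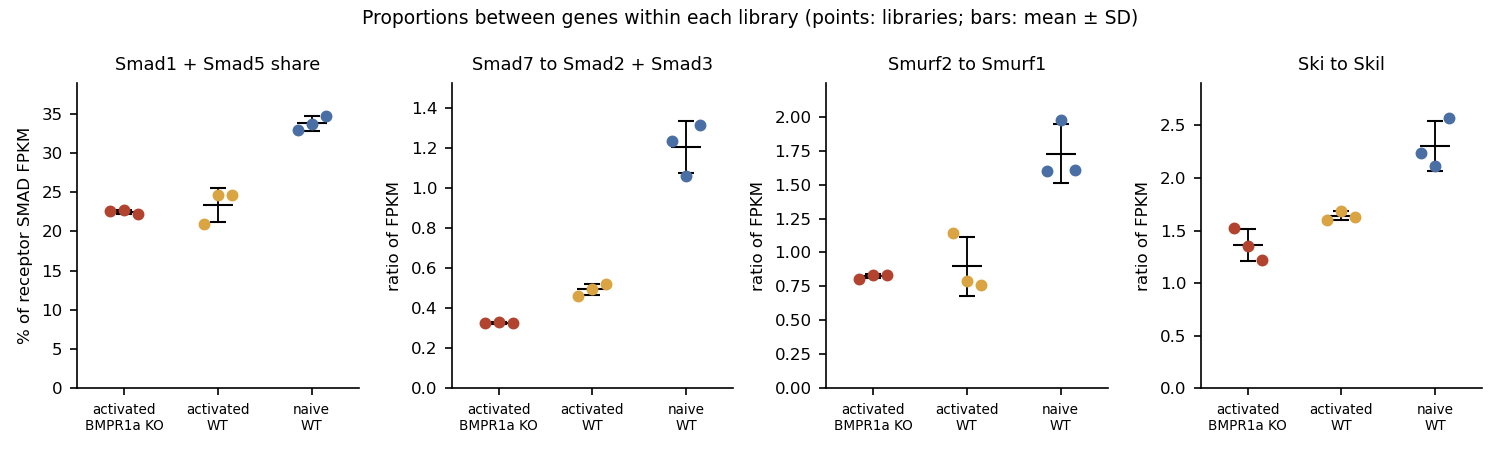
Proportions between genes within each library, as the percentage of receptor-regulated SMAD FPKM from Smad1 and Smad5 and as ratios of FPKM, with points for libraries and bars for the mean and SD of 3 libraries. The ratio of Smad7 to Smad2 plus Smad3 lay between 0.324 and 0.330 in activated knockout, between 0.462 and 0.521 in activated WT and above 1.0 in naive WT libraries.

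Setting the activated knockout against activated WT cells compares the set between genotypes after activation. Differences already present before activation cannot be told apart from later ones here. Smad7 was lower in the knockout, and 1 of the 10 genes, Smad7 itself, passed the test. Across all tested genes 4.14% were called, 0.84% lower and 3.3% higher. The median log2 difference was -0.010 over the 10 genes and 0.058 over all tested genes. Of the 626 genes called, 499 (79.7%) were higher in the knockout, but with median-of-ratios scaling it was 166 of 306 (54.2%) and with quantile normalization 183 of 324 (56.5%), so the general direction of this comparison depends on scaling. Size factors were 1.017 to 1.035 in knockout and 0.971 to 0.982 in activated WT libraries.

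Smad7 had 13.7, 11.95 and 12.9 FPKM in activated knockout and 16.4, 18.2 and 20.9 FPKM in activated WT libraries. All 3 knockout values lay below all 3 WT values. The ratio of means was 0.695 and the log2 difference was -0.49 with an SE of 0.102 and a 95% interval from -0.72 to -0.25 (limma adjusted p = 0.0439), while the exact two-sided permutation p was 0.1, the smallest that 3 against 3 libraries can give. The difference was negative in all 18 alternative settings, between -0.57 and -0.40, and passed the threshold in 8 of them. Under median-of-ratios scaling it was -0.56 (limma adjusted p = 0.0330) and under quantile normalization it was -0.57. The call was lost without the filter on low values, in a fit of the 6 libraries alone, with the replicate number as a block, and without any of the naive WT libraries, activated WT library 2 or 3, or knockout library 2 or 3, with adjusted p from 0.0555 to 0.151. The call thus changed with the setting, while the sign did not. Other markers were not level between these groups either: Cd8a had 74.9, 105 and 107 FPKM in activated knockout and 53.4, 52.0 and 79.3 FPKM in activated WT libraries, and the division marker sum was 662 to 801 and 408 to 768 FPKM, both with overlap. Their part in the Smad7 difference was not tested.

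**Figure D3:**
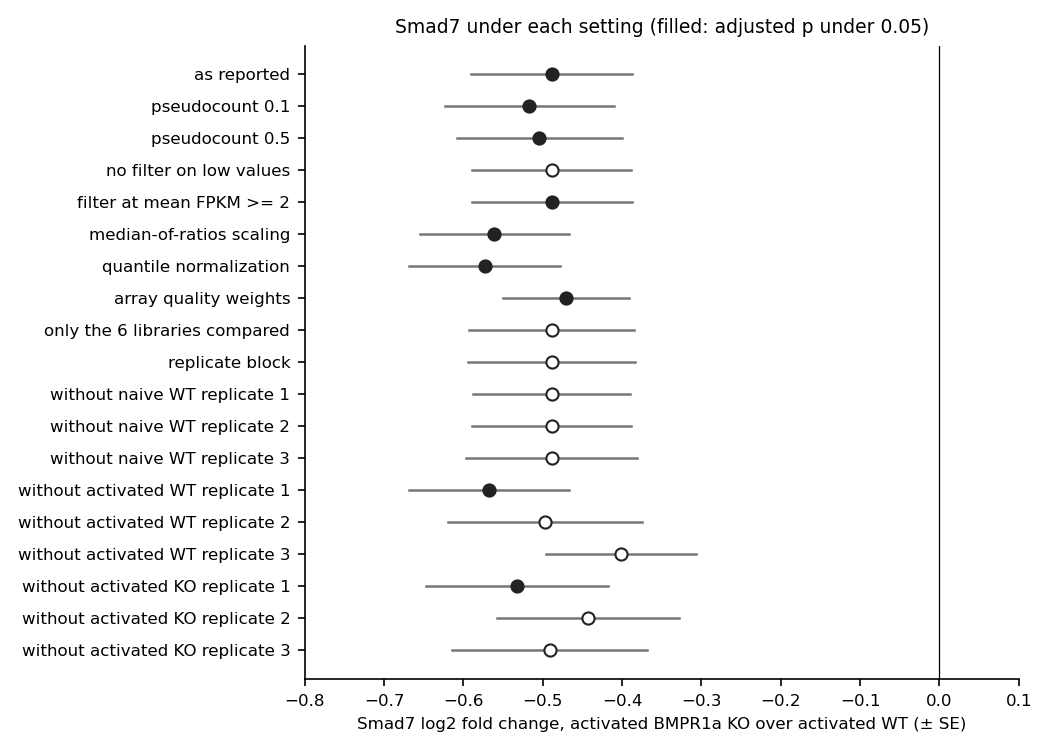
Log2 difference of Smad7 between activated BMPR1a knockout and activated WT under the reported setting and 18 alternatives, with bars for ± SE and filled points where the adjusted p is under 0.05. All points lie between -0.57 and -0.40, and 9 of the 19, the reported one among them, are filled.

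Relative to its possible partners Smad7 was also lower in the knockout. Its ratio to Smad2 plus Smad3 was 0.324, 0.330 and 0.325 in activated knockout and 0.462, 0.497 and 0.521 in activated WT libraries. Its ratio to Smad4 was 0.494 ± 0.0122 in activated knockout and 0.675 ± 0.0614 in activated WT libraries (SD, n = 3 each). Neither ratio overlapped between the genotypes. A ratio within a library does not depend on how libraries are scaled to each other, and neither ratio says which of its parts changed.

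The other 9 genes did not pass the test between genotypes, and 1 of them, Skil, had an unadjusted limma p under 0.05. Skil had 13.2, 14.1 and 16.7 FPKM in activated knockout and 11.0, 12.5 and 12.2 FPKM in activated WT libraries, without overlap. Its log2 difference was 0.28, with an unadjusted 95% interval from 0.035 to 0.52 (limma adjusted p = 0.153). The ratio of Ski to Skil was 1.36 ± 0.156 in activated knockout and 1.64 ± 0.0420 in activated WT libraries (SD, n = 3 each), without overlap.

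Smad2 had 21.97, 21.4 and 23.8 FPKM in activated knockout and 19.5, 19.8 and 21.3 FPKM in activated WT libraries, again without overlap but with a narrow gap. The log2 difference was 0.14 with a 95% interval from -0.0070 to 0.29 (limma adjusted p = 0.219). When libraries were weighted by quality, Smad2 and Skil were called higher at 0.19 and 0.31 (limma adjusted p = 0.0379 and 0.0409), in a fit that called 3851 genes in all. Smurf2 had 8.54, 8.54 and 8.35 FPKM in activated knockout and 9.11, 9.37 and 8.55 FPKM in activated WT libraries, a log2 difference of -0.078 with a 95% interval from -0.37 to 0.22. These make 4 of the 10 genes without overlap between genotypes, 2 lower and 2 higher, against 31.2% of all tested genes, 8.36% lower and 22.8% higher.

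The BMP-branch SMADs, which act below the deleted receptor, overlapped between genotypes. Smad1 had 5.01, 4.90 and 5.61 FPKM in activated knockout and 3.84, 4.52 and 4.90 FPKM in activated WT libraries, a log2 difference of 0.19 with a 95% interval from -0.027 to 0.41. Smad5 had 7.27, 5.74 and 5.69 FPKM in activated knockout and 5.52, 7.40 and 8.19 FPKM in activated WT libraries, a difference of -0.14 with an interval from -0.47 to 0.18. These intervals leave room for changes of that size in either gene, so equal levels are not shown. Their share of receptor-regulated SMAD FPKM was 22.5 ± 0.244% in activated knockout and 23.4 ± 2.15% in activated WT libraries (SD, n = 3 each), with overlap.

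The remaining 4 genes also overlapped. Smad4 averaged 26.0 ± 2.34 FPKM in activated knockout and 27.3 ± 0.999 FPKM in activated WT libraries, and Smad3 averaged 16.9 ± 2.83 and 17.2 ± 1.46 FPKM (SD, n = 3 each). Their log2 differences were -0.072 with a 95% interval from -0.25 to 0.11 and -0.027 with an interval from -0.37 to 0.32. Smurf1 averaged 10.3 ± 0.286 FPKM in activated knockout and 10.4 ± 2.11 FPKM in activated WT, and Ski 19.8 ± 0.677 and 19.5 ± 1.76 FPKM (SD, n = 3 each). Their intervals ran from -0.32 to 0.34 and from -0.14 to 0.19, around differences whose sign changed with the scaling: 0.0066 and 0.025 as deposited, -0.064 and -0.049 with median-of-ratios scaling.

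**Figure D4:**
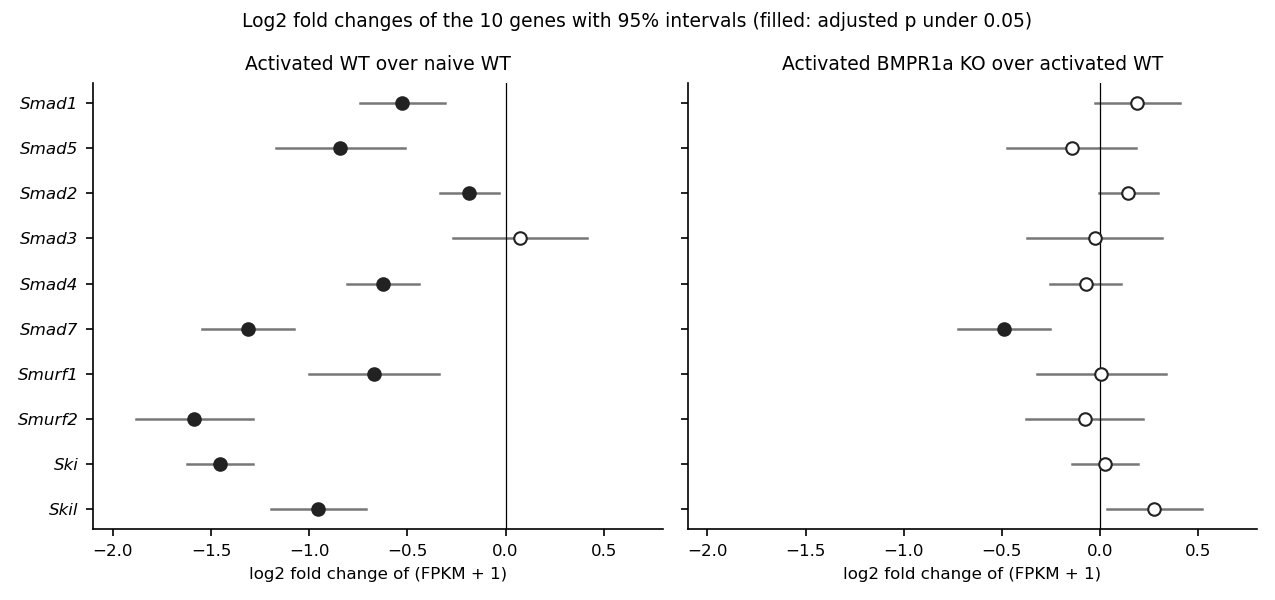
Log2 fold changes of (FPKM + 1) of the 10 genes with unadjusted 95% intervals, on the left for activated WT over naive WT and on the right for activated BMPR1a knockout over activated WT. Filled points have an adjusted p under 0.05: 9 on the left, all negative, and Smad7 at -0.49 on the right.

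In activated knockout cells the order of levels began with Smad4 and Smad2, at 26.0 ± 2.34 and 22.4 ± 1.24 FPKM, which overlapped. Ski at 19.8 ± 0.677, Smad3 at 16.9 ± 2.83, Skil at 14.7 ± 1.82 and Smad7 at 12.8 ± 0.859 FPKM followed with overlap between neighbours (SD, n = 3 each). Smurf1, Smurf2, Smad5 and Smad1 came last, each below the one before it without overlap.

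Against naive WT cells, where both genotype and activation differ, 8 of the 10 genes were lower in the activated knockout and 0 were higher (limma), where 56.9% of all tested genes were called, 25.1% lower and 31.8% higher. The same 8 genes did not overlap between these groups, against 63.8% of tested genes, 28.7% lower and 35.2% higher. It shares its libraries with both comparisons above, so its values add no separate evidence. The median log2 difference was -0.69 over the 10 genes and 0.044 over all tested genes. The values for Smad7 were 13.7, 11.95 and 12.9 FPKM in activated knockout and 51.5, 43.8 and 46.5 FPKM in naive WT libraries, a ratio of means of 0.271 and a log2 difference of -1.80 (SE 0.102, limma adjusted p = 8.2e-06). Smad7 had the most negative value here, with Smurf2 at -1.66 (adjusted p = 3.3e-05) and Ski at -1.43 (adjusted p = 5.5e-06) next. Smad5 was at -0.99, Smad4 at -0.70, Skil at -0.68, Smurf1 at -0.66 and Smad1 at -0.33 (limma adjusted p from 0.000195 to 0.0165). The 2 genes that did not pass were Smad2 at -0.041 (adjusted p = 0.615) and Smad3 at 0.046 (adjusted p = 0.812).

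Related genes of the pathway, in lists that hold none of the 10 except where stated, included genes called in each direction on activation. Of 12 other ubiquitin ligases and deubiquitinases of the pathway, 2 rose and 5 fell in activated WT relative to naive WT cells. Among all tested genes 26.2% rose and 25.8% fell. The median log2 change of the 12 genes was -0.17. Nedd4l, a ligase of Smad2 and Smad3, was at 1.61 ± 0.186 FPKM in activated WT and 3.67 ± 0.497 FPKM in naive WT, and Stub1, a ligase that works with chaperones, at 21.6 ± 0.616 and 38.1 ± 3.06 FPKM (SD, n = 3 each; limma adjusted p = 0.000615 and 0.000118). Usp9x, a deubiquitinase of Smad4, fell by 0.56 on the log2 scale (limma adjusted p = 0.00262). The deubiquitinases Uchl5 and Usp15 rose by 0.37 and 0.20 on the log2 scale (adjusted p = 0.0268 and 0.0390), and their calls were lost in 5 and 10 of the 18 alternative settings.

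Of 14 tested corepressors and phosphatases, 2 rose and 7 fell, with a median of -0.23 (26.2% and 25.8% of all tested genes). The falls were led by Ldlrad4, a membrane protein that keeps Smad2 and Smad3 from the receptor, at 2.37 ± 0.517 FPKM in activated WT and 6.38 ± 0.952 FPKM in naive WT (SD, n = 3 each; limma adjusted p = 0.000489). The corepressor Zeb1 fell by 0.59 on the log2 scale. Tgif1, a homeodomain corepressor of Smad2, was at 20.7 ± 1.58 FPKM in activated WT and 12.0 ± 1.79 FPKM in naive WT (SD, n = 3 each; limma adjusted p = 0.00553), and the phosphatase Ctdsp2 rose by 0.59 on the log2 scale. Negative regulators thus included genes that rose and genes that fell.

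Of 13 tested coactivators, adaptors and partners, 2 rose and 7 fell, with a median of -0.38 (26.2% and 25.8% of all tested genes). RUNX factors, which bind DNA beside SMADs, moved in both directions: Runx2 was at 7.14 ± 1.61 FPKM in activated WT and 0.411 ± 0.116 FPKM in naive WT, and Runx3 at 74.2 ± 2.799 and 22.9 ± 4.86 FPKM, while Runx1 was at 4.33 ± 0.592 and 14.7 ± 1.74 FPKM (SD, n = 3 each; limma adjusted p = 1.5e-05, 5.6e-05 and 0.000192). The histone acetyltransferases Crebbp and Kat2a fell by 0.97 and 0.86 on the log2 scale.

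Of 9 tested receptors, 2 rose and 5 fell, with a median of -0.45 (26.2% and 25.8% of all tested genes). The type I receptor Acvr1b was at 5.55 ± 0.423 FPKM in activated WT and 17.8 ± 1.29 FPKM in naive WT, and the TGF-β receptor Tgfbr2 at 59.8 ± 2.96 and 102 ± 5.25 FPKM (SD, n = 3 each; limma adjusted p = 1.2e-05 and 0.000152). On the log2 scale the coreceptor Tgfbr3 fell by 0.87, Bmpr1a rose by 1.18 (limma adjusted p = 0.00215) and the coreceptor Eng rose by 0.84 (limma adjusted p = 0.0330), the last a call lost in 9 of the 18 alternative settings.

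Of 10 tested SMAD target genes, a list that includes Smad7 and Skil and shares Tgif1 and Ldlrad4 with the corepressors, 4 rose and 3 fell, with a median of 0.062 (26.2% and 25.8% of all tested genes). The cell cycle inhibitor Cdkn1a was at 6.17 ± 2.42 FPKM in activated WT and 0.297 ± 0.150 FPKM in naive WT, and the integrin Itgae at 5.91 ± 2.91 and 0.793 ± 0.536 FPKM (SD, n = 3 each; limma adjusted p = 0.000345 and 0.00294). The sum of 6 cell division markers was 408 to 768 FPKM in activated WT and 7.74 to 12.1 FPKM in naive WT libraries, and its part in these changes was not tested.

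Between genotypes few of these related genes were called. Of the ubiquitin ligases and deubiquitinases, of the corepressors and phosphatases, and of the receptors, 0 were called by limma, with 4 of 12, 2 of 14 and 2 of 9 at an unadjusted p under 0.05. Over all tested genes 4.14% were called and 25.0% had an unadjusted p under 0.05. Among coactivators and partners, Smarca4, the ATPase of a chromatin remodelling complex, was at 35.5 ± 0.564 FPKM in activated knockout and 28.3 ± 0.930 FPKM in activated WT libraries (SD, n = 3 each; log2 difference 0.31, limma adjusted p = 0.0338), a call lost in 10 of 18 alternative settings. Among the targets 1 gene beside Smad7 was called: Cdkn1a was at 26.4 ± 6.95 FPKM in activated knockout and 6.17 ± 2.42 FPKM in activated WT libraries (SD, n = 3 each; log2 difference 1.96, limma adjusted p = 0.0232), a call lost in 4 of the 18 settings. The pathway's targets therefore included a gene lower and a gene higher in the knockout.

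**Figure D5:**
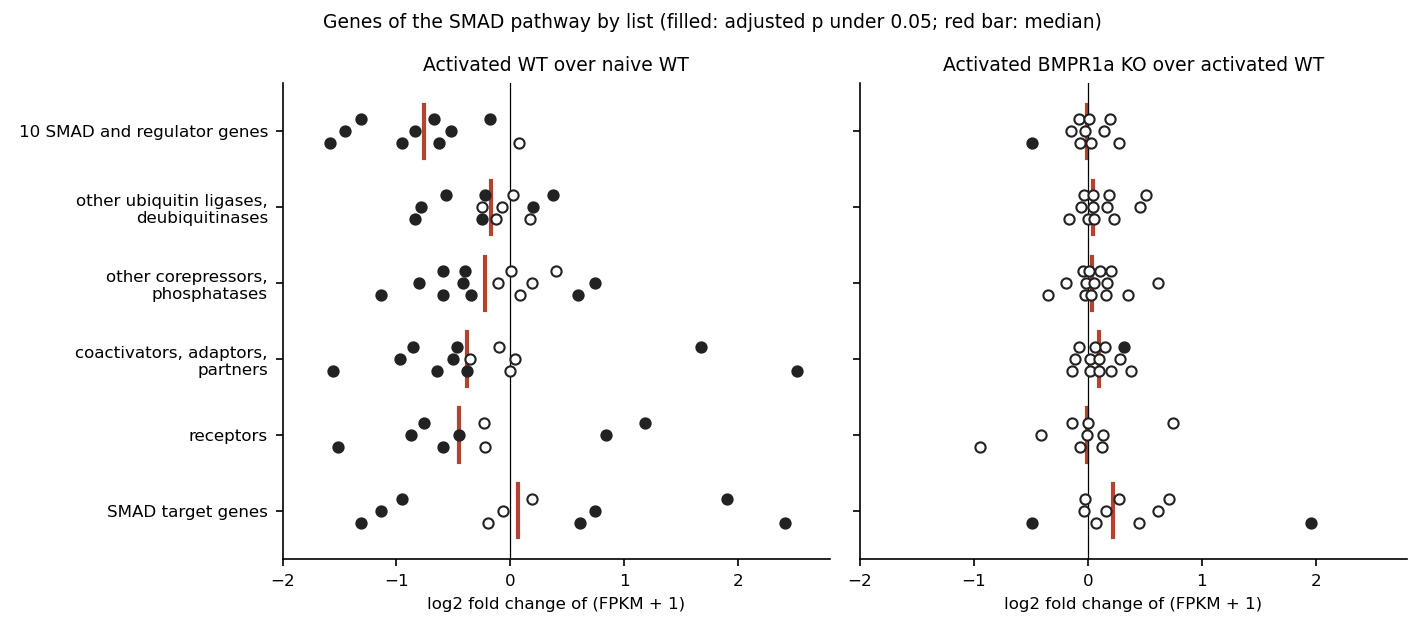
Log2 fold changes of (FPKM + 1) of the 10 genes and of 5 lists of related genes, for activated WT over naive WT on the left and activated BMPR1a knockout over activated WT on the right, with a point per tested gene, filled where the adjusted p is under 0.05, and a bar at each list's median. On the left the medians run from -0.76 for the 10 genes to 0.062 for the target genes.

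Smad2, Smad4 and Smad7 lie near each other on chromosome 18, between 73639009 and 76310963 of GRCm38, a span of 2.67 Mb. Of the 18 tested genes in the span 6 were lower in activated WT than in naive WT cells, namely these 3 and 3 of the other 15, against 25.8% of all tested genes. All 10 genes are annotated as protein-coding. The annotated genes that overlap them are small RNAs on the same strand and, within Smad4, a pseudogene on the opposite strand, for which no values were used here.

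Across the 9 libraries, which fall into 3 groups and share their depth with every gene, the profiles of most of the 10 genes were alike. For Smad4, Smad7 and Smurf2 the most similar of 10000 other genes averaging 5 FPKM or more were Mex3b (Pearson r = 0.997), Zfp943 (r = 0.994) and Prkd3 (r = 0.995), and for Ski it was Gid4 (r = 0.996). Within the set, Ski and Smad4 (r = 0.976), Smurf2 and Ski (r = 0.975) and Smad7 and Smad4 (r = 0.975) were among the closest pairs. Smad3 stood apart, with its best match in the set at r = 0.117 (Smad2) and its best matches elsewhere at Eif4ebp2 (r = 0.921) and Irak4 (r = 0.901). These correlations describe mainly the difference between activated and naive libraries and carry no p.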

How the data were processed

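The authors deposited 1 table of FPKM values with a column for each of the 9 libraries. Per the submitters' processing notes, TopHat2, Cufflinks and Cuffdiff were used with genome build GRCm38. Their versions, the annotation and the strand setting are not stated in the sources used here. Groups came from the sample titles. Of 25759 gene identifiers, 24876 matched a symbol and a position in the GENCODE annotation of GRCm38.

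The 15126 genes averaging 0.5 FPKM or more entered limma 3.58.1 (R 4.3.3) as log2(FPKM + 1). Its moderated test was used with a trend on intensity and 1 joint fit of the 9 libraries, without covariates or scaling. Tests were two-sided with Benjamini-Hochberg adjustment over all tested genes and a threshold of 0.05. A pseudocount of 1 understates changes of low genes. The procedure was tested on simulated data. Exact permutation tests used scipy 1.17.1. No overlap means that every library of a group lay on the same side of every library of the other.

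The 10 genes and the lists of related genes were chosen with earlier results of these data known. All 10 genes were named in each comparison. From each list up to 3 called genes per direction, those of largest log2 change, were named, and for similarity the genes with the highest correlation, of which a selection is given. Alternatives were pseudocounts of 0.1 and 0.5, no filter, a filter at 2 FPKM, 2 scalings, quality weights, the 6 libraries compared alone, a replicate block and leaving out each library. Promoter sequences of 6 of the 10 genes came from RefSeq on GRCm38.p6. Some genes that the naming rule selects are not reported here.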

Additional observations from a re-analysis of the deposited data

How the results depend on the processing

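In activated WT against naive WT cells 8 or 9 of the 10 genes were called in each of the 18 alternative settings, and in the knockout against naive WT cells 7 or 8. The count of genes called between knockout and activated WT was far less stable. The reported 626 became 416 without a filter, 306 with median-of-ratios scaling, 324 with quantile normalization, 3851 with quality weights, 92 in a fit of the 6 libraries alone and 58 with the replicate block, and ran from 64 to 1037 when a library was left out (143 and 407 without naive WT library 1 and 2, 283, 64 and 239 without activated WT library 1, 2 and 3, and 1037, 93 and 69 without knockout library 1, 2 and 3). Of the 10 genes, the 1 called became 0 without a filter, in the 6 libraries alone and with the replicate block, 3 with quality weights, and 0 or 1 when a library was left out.

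The sign changed for differences near 0. In activated WT against naive WT, Smad3 was at -0.042 with quality weights and from -0.062 to 0.15 with a library left out. In the knockout against activated WT, Smad3 ran from -0.15 to 0.056 with a library left out. In that comparison Smurf1 was at -0.064 with median-of-ratios scaling, -0.085 with quantile normalization, -0.091 with quality weights and from -0.16 to 0.11 with a library left out, and Ski at -0.049, -0.063, -0.013 and from -0.045 to 0.078. In the knockout against naive WT, Smad3 was at -0.0501 with quantile normalization, -0.0817 with quality weights and from -0.090 to 0.13 with a library left out. The cause was not tested. Quantile normalization moved the median log2 difference of all genes between knockout and naive WT cells to -0.080, against 0.044 as deposited.

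Same-numbered libraries of different groups deviated together only weakly. The correlations of their deviations from group means were 0.0027 to 0.054, with a median of 0.035. Libraries with different numbers had -0.068 to 0.038, with a median of -0.015. All these values were small, so the numbers were not taken as pairs. With the replicate block 8 of the 10 genes were called on activation, among 7447 genes. The depth behind the values is unknown, so no limit of detection can be given.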

Other observations

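Transcripts of 2 genes used for sorting were compared with the gates. Cd44 had 33.6, 30.0 and 28.2 FPKM in activated knockout, 27.7, 27.4 and 22.9 FPKM in activated WT and 9.42, 13.9 and 11.0 FPKM in naive WT libraries, in the direction of the sort. Foxp3 had 5.89, 2.21 and 4.31 FPKM in activated knockout against 1.02, 0.989 and 0.867 FPKM in activated WT libraries (limma adjusted p = 0.0351), and 2.79, 2.73 and 2.43 FPKM in naive WT libraries, although all cells were sorted as negative for its reporter. These genes were singled out after their values were seen.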
